A study of Mus musculus with 20 samples.

Results

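The genes described are 9 homeostatic microglia genes, P2ry12, P2ry13, Cx3cr1, Gpr34, Tmem119, Siglech, Selplg, Fcrls and Sall1, which were chosen by name. They are 9 of the 39056 genes in the count table, and all 9 were among the 16107 genes with enough counts to be tested. Homeostatic microglia are the resident macrophages of the healthy brain, and they hold these genes at high levels while they survey the tissue with their processes. Several of the genes are kept on by TGF-beta signalling, and a loss of their transcripts is often used as a sign that microglia have left the surveying state, for example at amyloid plaques. Whole left hippocampus was sequenced, so more microglia and more RNA per microglial cell cannot be told apart in the level or fold change of a gene.

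Each of 20 female mice on a C57BL/6 background gave 1 library of polyadenylated RNA, and the mice fell into 4 groups of 5. WT Non-Tg mice carried neither modification, and KO Non-Tg mice lacked miR-34a in the whole body from conception. WT Tg-SwDI mice carried human APP with the Swedish, Dutch and Iowa mutations under the neuronal Thy1 promoter, which leads to amyloid in the brain and its vessels, and KO Tg-SwDI mice carried the transgene and lacked miR-34a. Behaviour was tested at 12 months of age and amyloid was stained at 13 months, and the brains were perfused before dissection. Because the deletion is constitutive and reaches every cell, and the transgene is neuronal, the design does not separate effects that arise in microglia from effects that arise in other cells. Single mice are called by group and by their label number. The libraries held 19549622 to 21066868 gene counts. Each group was made up of separate mice, and Xist (326 to 666 CPM, which are counts scaled to a common library total) and Thy1 (685 to 769 CPM in Non-Tg, 1905 to 2328 CPM in WT Tg-SwDI and 2454 to 3318 CPM in KO Tg-SwDI mice) matched the sex and transgene labels. The microRNA itself was not analysed here. In KO Tg-SwDI mouse 8 the mitochondrial gene mt-Co1 took 4.54% of all counts, against 2.57% to 3.32% in the other 19 mice, and its TMM factor was 0.901, against 0.981 to 1.03. The other KO Tg-SwDI mice had mt-Co1 shares of 3.02% to 3.32%, and the WT Tg-SwDI mice 2.69% to 3.07%. Whether this bears on differences between these groups was not tested.

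The deleted microRNA is shown first, because its seed sets which transcripts could pair with it directly. The mature strand lies at chr4:150068473-150068494 on the plus strand of GRCm38.p6 (RefSeq), and capitals mark the seed, bases 2 to 8.
mmu-miR-34a-5p: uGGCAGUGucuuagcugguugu
The letters CACTGCC, which pair with this seed, were found in the longest GENCODE M21 3'UTR of 0 of the 9 genes and of 2793 of the 14727 tested genes with a 3'UTR (19.0%). The median 3'UTR was 1143 bases long for the 9 genes and 1370 for all genes. Only this 7-letter match was searched, on the sense strand, so other ways of pairing were not looked at.

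The promoters of members are shown where they hold the letters GAGGAAG, the core bound by PU.1 (Spi1), the lineage factor of macrophages and microglia. RefSeq promoters, 250 bases before to 50 after the start, were found for 6 of the 9 genes in 8 windows (P2ry12, P2ry13, Cx3cr1, Sall1, Siglech and Fcrls). GAGGAAG was found on either strand for 2 of the 6, against 15.4% of 27025 genes, and interferon-type letters, GAAA followed by any 2 bases and GAAA again, for 0 of the 6, against 3.99%. In both genes the match is on the gene's own strand, the minus strand of GRCm38.p6, and capitals mark it, at chr3:59210912-59210941 for P2ry13 and at chr3:87263650-87263679 for Fcrls.
P2ry13: caaggggaaatGAGGAAGgaaaagcagtat
Fcrls: aagtctgtaaaGAGGAAGgacgtttgcttt
Counted from the RefSeq start that defines each window, the match begins at -48 in P2ry13 and at -144 in Fcrls. The RefSeq start of Fcrls lies inside its GENCODE M21 gene, so the match in Fcrls is upstream of the first but within the second. A match of letters is a description and not a binding site, and whether it bears on the levels below was not tested.

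All 9 genes were higher with the transgene than without it, both in WT and in KO mice, and for none of them did the 5 mice of one group overlap with the 5 of the other. None stayed flat and none fell. The rise ran from 1.29-fold for Sall1 to 2.97-fold for Fcrls in WT mice, and from 1.54-fold for P2ry12 to 3.76-fold for Fcrls in KO mice. With edgeR's quasi-likelihood test, adjusted after Benjamini and Hochberg over all genes tested, 9 of 9 were called higher in both comparisons. Of all genes tested, 3.94% were called higher in WT mice and 12.5% in KO mice, and 5.1% and 8.47% were higher without overlap. The median log2 fold change of the 9 genes was 0.74 in WT and 1.04 in KO mice, beside 3.21e-05 and -0.00483 over all genes. The plot of CPM by mouse shows every value.

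**Figure D1:**
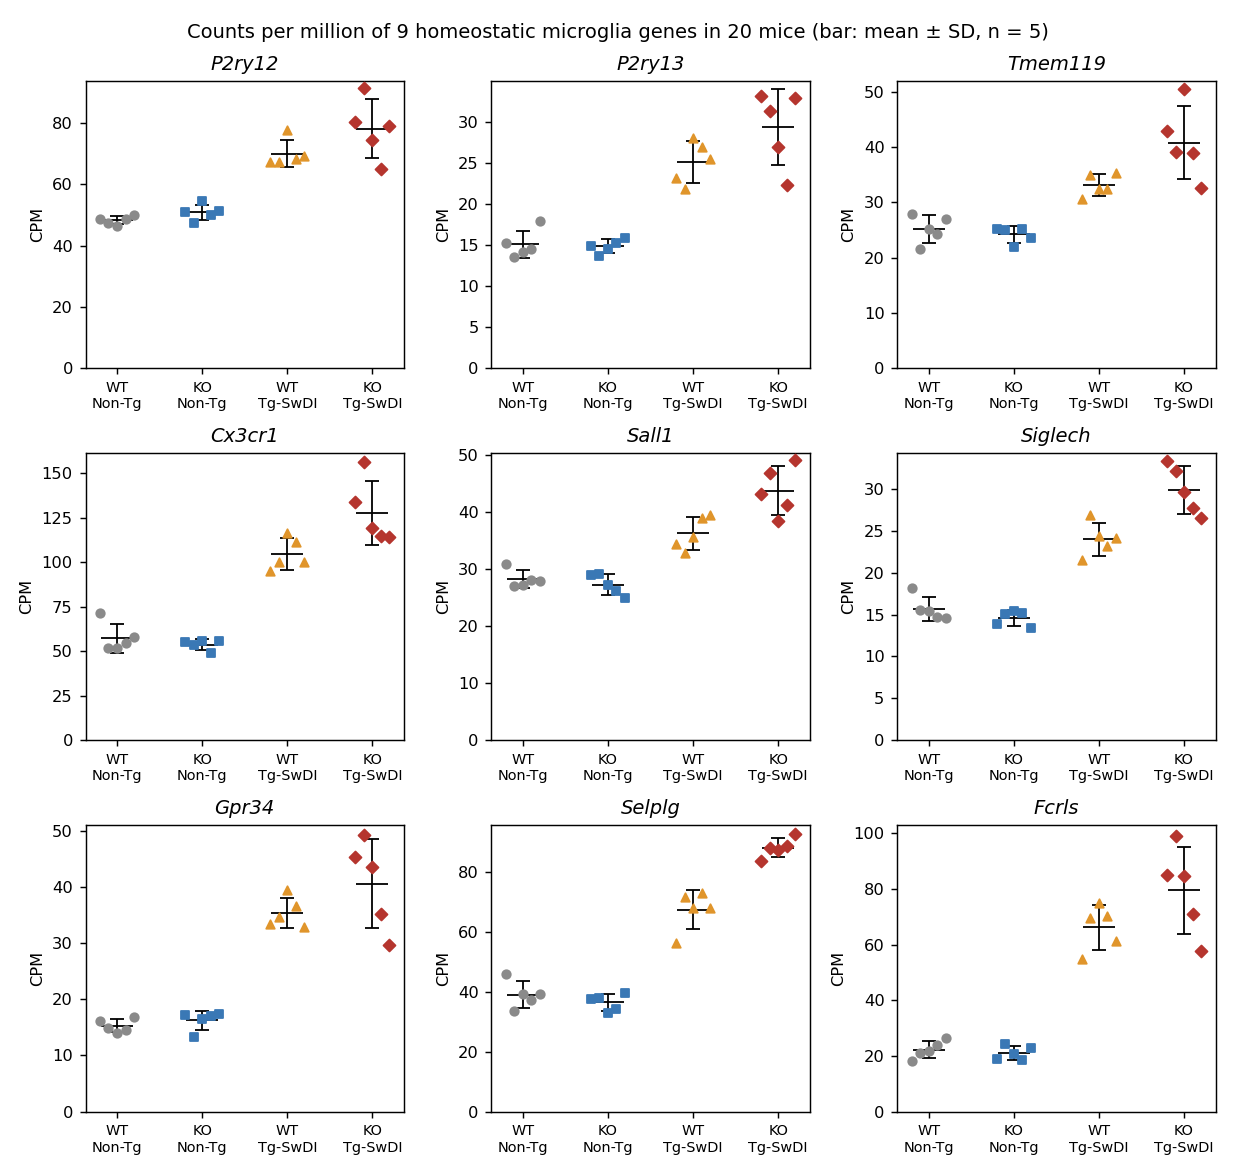
CPM (linear axis) of each of the 9 genes in each of the 20 mice, 1 panel per gene, with a point per mouse and bars for the mean and SD of each group of 5. In every panel the Tg-SwDI points lie above the Non-Tg points, and for Selplg alone the 5 KO Tg-SwDI mice (83.8 to 92.8 CPM) also lie above the 5 WT Tg-SwDI mice (56.3 to 73.0 CPM).

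P2ry12 and P2ry13 are receptors for ADP that lie next to each other on chromosome 3, and P2ry12 steers microglial processes towards nucleotides from injured cells. P2ry12 (chr3:59216272-59262871 of mm10, minus strand) was at 48.6, 47.4, 46.5, 48.7 and 49.8 CPM in WT Non-Tg mice and at 51.1, 47.2, 54.4, 49.99 and 51.3 CPM in KO Non-Tg mice. In Tg-SwDI mice it was at 67.3, 67.2, 77.6, 68.4 and 69.2 CPM in WT and at 80.4, 91.4, 74.5, 65.1 and 79.1 CPM in KO mice. In WT Non-Tg mice its values were, for their mean, the tightest of the 9 genes, at 48.2 ± 1.28 CPM (SD, n = 5), and KO Tg-SwDI mice spread on both sides of the WT Tg-SwDI mice. The log2 fold change from Non-Tg to Tg-SwDI was 0.54 in WT (standard error 0.07, edgeR adjusted p = 1.62e-06) and 0.62 in KO mice (standard error 0.06, adjusted p = 5.18e-08). P2ry13 (chr3:59207892-59210882, minus strand) was at 15.2, 13.5, 14.1, 14.5 and 17.9 CPM in WT Non-Tg mice and at 14.9, 13.6, 14.5, 15.3 and 15.9 CPM in KO Non-Tg mice. Its Tg-SwDI values were 23.2, 21.8, 28.0, 26.9 and 25.5 CPM in WT and 33.1, 31.3, 27.0, 22.3 and 32.8 CPM in KO mice. The lowest Tg-SwDI mouse of either genotype was thus above the highest Non-Tg mouse, while KO Tg-SwDI mice 3 and 5 lay within the WT Tg-SwDI range. The log2 fold change from Non-Tg to Tg-SwDI was 0.74 in WT (standard error 0.10, edgeR adjusted p = 5.82e-06) and 0.98 in KO mice (standard error 0.10, adjusted p = 1.82e-08). Both genes lie within Med12l on the opposite strand, but only 9 exonic bases of P2ry12 and 0 of P2ry13 are shared with it.

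Cx3cr1 is the receptor for fractalkine, a membrane-bound chemokine of neurons. It (chr9:119901616-120069879, minus strand) had the highest CPM of the 9 genes in every mouse but KO Non-Tg mouse 7, where P2ry12 was higher, with 71.3, 51.7, 51.5, 54.4 and 57.8 CPM in WT Non-Tg and 55.3, 53.2, 55.5, 48.6 and 55.8 CPM in KO Non-Tg mice. With the transgene it lay at 95.1, 99.998, 116, 111 and 100.4 CPM in WT and at 134, 156, 119, 115 and 114 CPM in KO mice. KO Tg-SwDI mice 1 and 2 were the highest of all 20 mice, while mice 5 and 8 of that group lay below the highest WT Tg-SwDI mouse. The rise from Non-Tg to Tg-SwDI was 1.82-fold in WT (log2 0.87, standard error 0.09, edgeR adjusted p = 4.65e-07) and 2.38-fold in KO mice (log2 1.25, standard error 0.09, adjusted p = 4.94e-10). Its ligand Cx3cl1 was at 656 ± 25.8 CPM (SD, n = 5) in WT Non-Tg and, in the WT Tg-SwDI group, at 581 ± 43.5 CPM (SD, n = 5), and no difference between groups was called for it. The antisense gene Gm33858 shares 78 exonic bases with Cx3cr1 (1.73% of the exonic bases of Cx3cr1), and without a known strand setting of the counting, reads from those bases cannot be told apart.

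Gpr34, a receptor for lysophosphatidylserine, showed the second largest rise. It (chrX:13632089-13640858, plus strand) was at 16.1, 14.9, 14.0, 14.6 and 16.8 CPM in WT Non-Tg and at 17.2, 13.3, 16.4, 16.98 and 17.5 CPM in KO Non-Tg mice. In mice with the transgene it was at 33.4, 34.6, 39.5, 36.6 and 32.8 CPM in WT and at 45.2, 49.3, 43.6, 35.1 and 29.7 CPM in KO mice. The KO Tg-SwDI mice held both the highest and the lowest Tg-SwDI values of this gene. The rise was 2.32-fold in WT (log2 1.21, standard error 0.11, edgeR adjusted p = 2.69e-08) and 2.49-fold in KO mice (log2 1.32, standard error 0.11, adjusted p = 1.94e-09). Gpr34 lies within Cask on the opposite strand and shares 0 exonic bases with it.

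Tmem119, a membrane protein of unsettled function, and Siglech, a sialic acid-binding lectin, are both used to tell microglia from other macrophages. Tmem119 (chr5:113793729-113800516, minus strand) was at 27.9, 21.6, 25.2, 24.3 and 26.9 CPM in WT Non-Tg and at 25.3, 25.04, 21.9, 25.3 and 23.6 CPM in KO Non-Tg mice. In Tg-SwDI mice it was at 30.6, 35.0, 32.4, 32.4 and 35.4 CPM in WT and at 43.0, 39.1, 50.5, 38.9 and 32.6 CPM in KO mice. The gap between the highest WT Non-Tg and the lowest WT Tg-SwDI mouse was narrow, and the KO Tg-SwDI mice were widely spread, with mouse 3 the highest and mouse 8 within the WT range. Its log2 fold change from Non-Tg to Tg-SwDI was 0.40 in WT (standard error 0.09, edgeR adjusted p = 0.00439) and 0.76 in KO mice (standard error 0.09, adjusted p = 2.72e-07). Siglech (chr7:55768178-55778925, plus strand) was at 18.2, 15.6, 15.5, 14.7 and 14.6 CPM in WT Non-Tg and at 13.9, 15.03, 15.4, 15.3 and 13.4 CPM in KO Non-Tg mice. With the transgene it lay at 21.5, 27.0, 24.4, 23.2 and 24.2 CPM in WT and at 33.4, 32.2, 29.7, 27.8 and 26.6 CPM in KO mice, so that only KO mouse 8 fell below a WT mouse. Its log2 fold change from Non-Tg to Tg-SwDI was 0.61 in WT (standard error 0.08, edgeR adjusted p = 2.28e-06) and 1.04 in KO mice (standard error 0.08, adjusted p = 8.83e-11).

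Selplg encodes PSGL-1, a ligand for selectins that leukocytes also carry, and it was the only one of the 9 genes whose KO and WT Tg-SwDI mice did not overlap. It (chr5:113818536-113832644, minus strand) was at 45.9, 33.5, 39.4, 37.2 and 39.4 CPM in WT Non-Tg and at 37.7, 37.9, 32.9, 34.2 and 39.8 CPM in KO Non-Tg mice. In mice with the transgene it was at 56.3, 71.6, 68.1, 73.0 and 68.1 CPM in WT and at 83.8, 88.0, 87.5, 88.7 and 92.8 CPM in KO mice. Every KO Tg-SwDI mouse exceeded every WT Tg-SwDI mouse, and the KO Tg-SwDI group was tight at 88.2 ± 3.21 CPM (SD, n = 5). The rise from Non-Tg to Tg-SwDI was 1.72-fold in WT (log2 0.79, standard error 0.07, edgeR adjusted p = 2.03e-08) and 2.42-fold in KO mice (log2 1.27, standard error 0.07, adjusted p = 1.002e-12). The selectins Selp and Sele, to which it binds, had too few counts to be tested.

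Fcrls, an Fc receptor-like scavenger receptor of mouse microglia, showed the largest rise of the 9 genes. It (chr3:87250758-87263738, minus strand) was at 18.2, 20.98, 21.9, 23.8 and 26.4 CPM in WT Non-Tg and at 18.9, 24.3, 20.8, 18.7 and 23.0 CPM in KO Non-Tg mice. In Tg-SwDI mice it was at 54.8, 69.4, 74.9, 70.3 and 61.3 CPM in WT and at 85.02, 99.0, 84.6, 71.1 and 57.6 CPM in KO mice. The lowest Tg-SwDI mouse held more than the highest Non-Tg mouse by a wide margin, and the KO Tg-SwDI mice were the most widely spread of the 4 groups, with mouse 8 again low. The log2 fold change was 1.57 in WT (standard error 0.13, edgeR adjusted p = 5.98e-08) and 1.91 in KO mice (standard error 0.13, adjusted p = 1.19e-09). How reads that match related receptor genes were counted is not given in the sources used here, so its values are uncertain to that extent.

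Sall1, a zinc finger transcription factor that holds microglial identity, showed the smallest rise in WT mice. It (chr8:89027235-89044162, minus strand) was at 30.9, 27.0, 27.1, 28.0 and 27.9 CPM in WT Non-Tg and at 28.9, 29.1, 27.1, 26.2 and 24.9 CPM in KO Non-Tg mice. With the transgene it lay at 34.5, 32.8, 35.5, 38.9 and 39.6 CPM in WT and at 43.1, 46.8, 38.5, 41.3 and 49.2 CPM in KO mice. KO Tg-SwDI mouse 8, the lowest of its group for 5 other genes of the 9, was the highest of all mice for Sall1. The rise was 1.29-fold in WT (log2 0.36, standard error 0.07, edgeR adjusted p = 0.000851) and 1.60-fold in KO mice (log2 0.68, standard error 0.07, adjusted p = 2.54e-08).

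**Figure D2:**
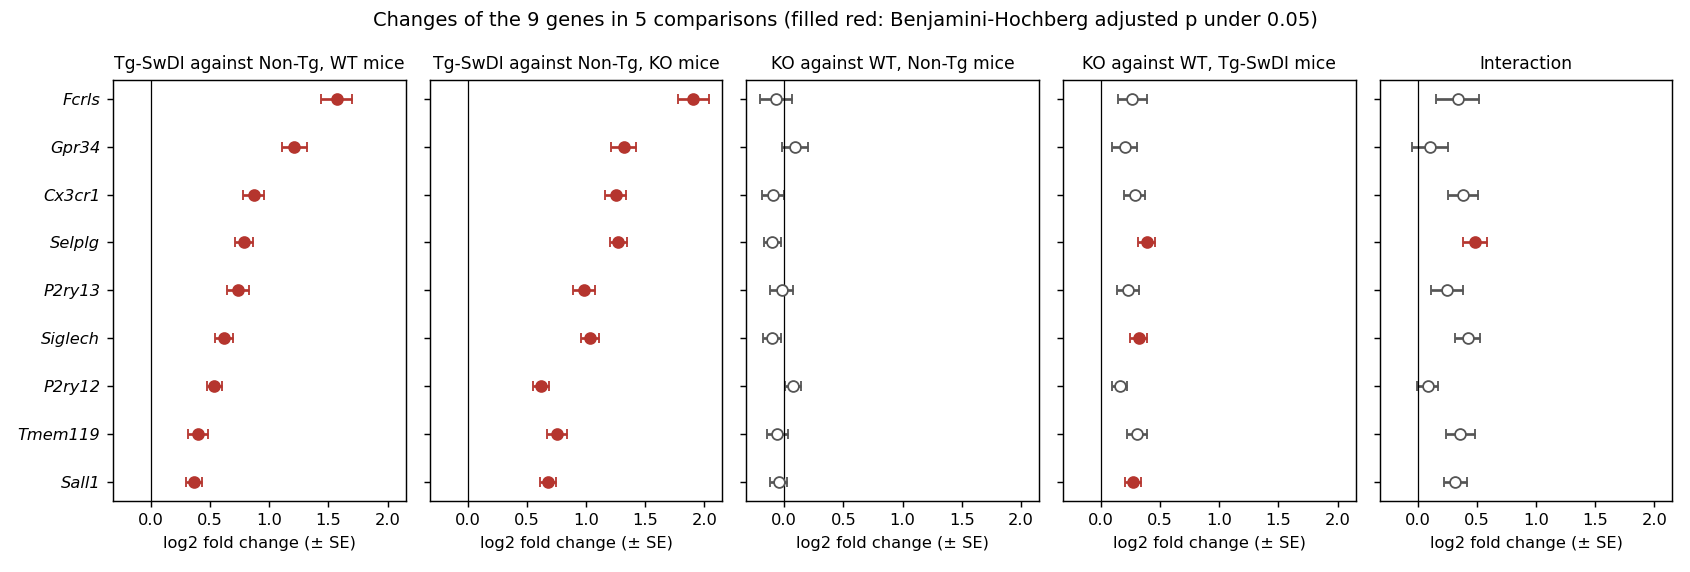
Log2 fold changes of the 9 genes (points, with bars of 1 standard error, filled red where the adjusted p was under 0.05) in 1 panel for each of the 4 pairwise comparisons and for the interaction, from edgeR's quasi-likelihood fit to all 20 mice. The transgene comparisons run from 0.36 (Sall1 in WT) to 1.91 (Fcrls in KO), and the KO comparisons run from -0.10 to 0.09 in Non-Tg and from 0.16 to 0.39 in Tg-SwDI mice, with Selplg, Siglech and Sall1 filled in the last and Selplg in the interaction.

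Levels of different genes were compared as CPM per kb of exonic length. In WT Non-Tg mice P2ry12 was the highest at 18.9 ± 0.504 CPM per kb (SD, n = 5), followed by Cx3cr1 at 12.7, Tmem119 at 10.9, Fcrls at 9.54, Selplg at 9.15, Gpr34 at 7.31, P2ry13 at 5.95, Sall1 at 5.35 and Siglech at 4.64 CPM per kb. P2ry12 was the only gene there whose 5 mice stood clear of the next in the order, and all other neighbours overlapped. KO Non-Tg mice had the same order, with Gpr34 clear of P2ry13 and Sall1 clear of Siglech as well. In WT Tg-SwDI mice the order had changed, with Fcrls first at 28.3 ± 3.43 CPM per kb (SD, n = 5) but overlapping with P2ry12 at 27.5 ± 1.71 CPM per kb (SD, n = 5). Cx3cr1 followed at 23.2 CPM per kb and was clear of its neighbours on both sides, and Gpr34 at 16.9, Selplg at 15.8 and Tmem119 at 14.3 CPM per kb overlapped in turn. P2ry13 stood alone at 9.92 CPM per kb, above Siglech at 7.11 and Sall1 at 6.89, which overlapped. In KO Tg-SwDI mice Fcrls (34.05 ± 6.73 CPM per kb), P2ry12 (30.7) and Cx3cr1 (28.3) overlapped in turn, and Selplg at 20.6 ± 0.752 CPM per kb (SD, n = 5) lay above Gpr34 at 19.4 without being clear of it. Tmem119 at 17.6 was clear of P2ry13 at 11.6, and Siglech at 8.85 and Sall1 at 8.31 CPM per kb were again the lowest and overlapped.

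**Figure D3:**
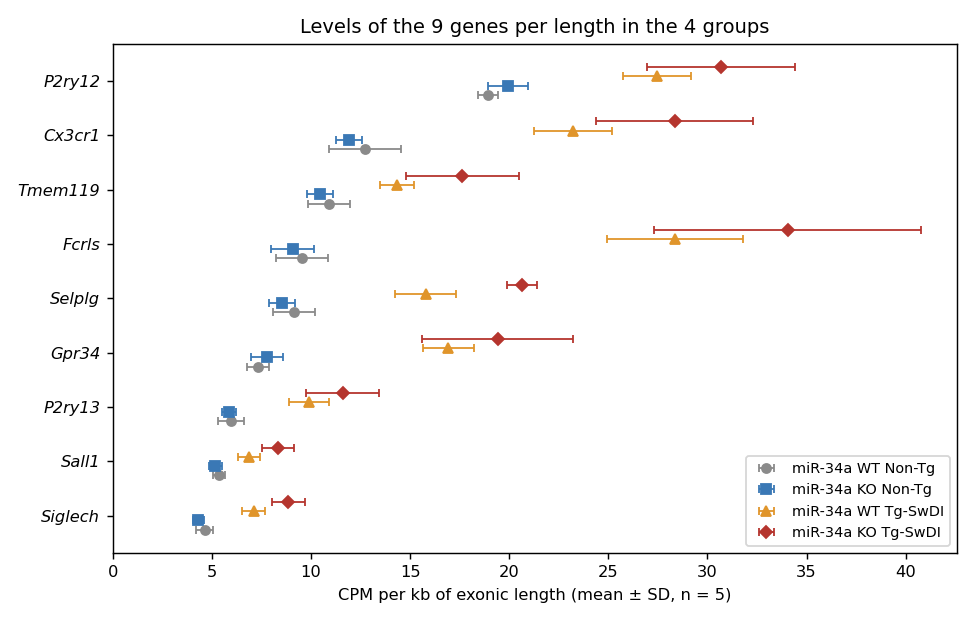
Mean CPM per kb of exonic length of the 9 genes in each of the 4 groups, with bars of 1 SD over 5 mice. Fcrls moves from the fourth place in WT Non-Tg mice (9.54 CPM per kb) to the first in WT Tg-SwDI mice (28.3 CPM per kb), while P2ry12 goes from 18.9 to 27.5 CPM per kb.

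Although all 9 genes rose, they did not rise in step. To show this within each library, the log2 CPM of a gene was set against the mean log2 CPM of the other 8 in the same mouse, so that a factor common to all 9 cancels. Against the others, Fcrls gained 0.88 (log2) from Non-Tg to Tg-SwDI in WT mice and 0.91 in KO mice, without overlap between the groups in either genotype. P2ry12 lost ground, with a difference of -0.28 in WT and -0.53 in KO mice, also without overlap in either. Gpr34 gained 0.47 in WT mice without overlap and 0.24 in KO mice, where the groups overlapped. Sall1 (-0.48) and Tmem119 (-0.44) lost ground without overlap in WT mice, and in KO mice their differences of -0.45 and -0.38 came with overlapping groups. For Cx3cr1, P2ry13, Selplg and Siglech the relative values of Tg-SwDI and Non-Tg mice overlapped in both genotypes. Between KO and WT mice the relative values of all 9 genes overlapped, with Selplg in Tg-SwDI mice at 0.15 as the largest difference. By construction, gains and losses balance over the 9 genes in each mouse. The gain of Fcrls thus lowers the relative values of the other genes, and the losses are not separate from it. These relative values are given as a description without a test. The 2 transgene comparisons share no mice, whereas each shares a group with each KO comparison.

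**Figure D4:**
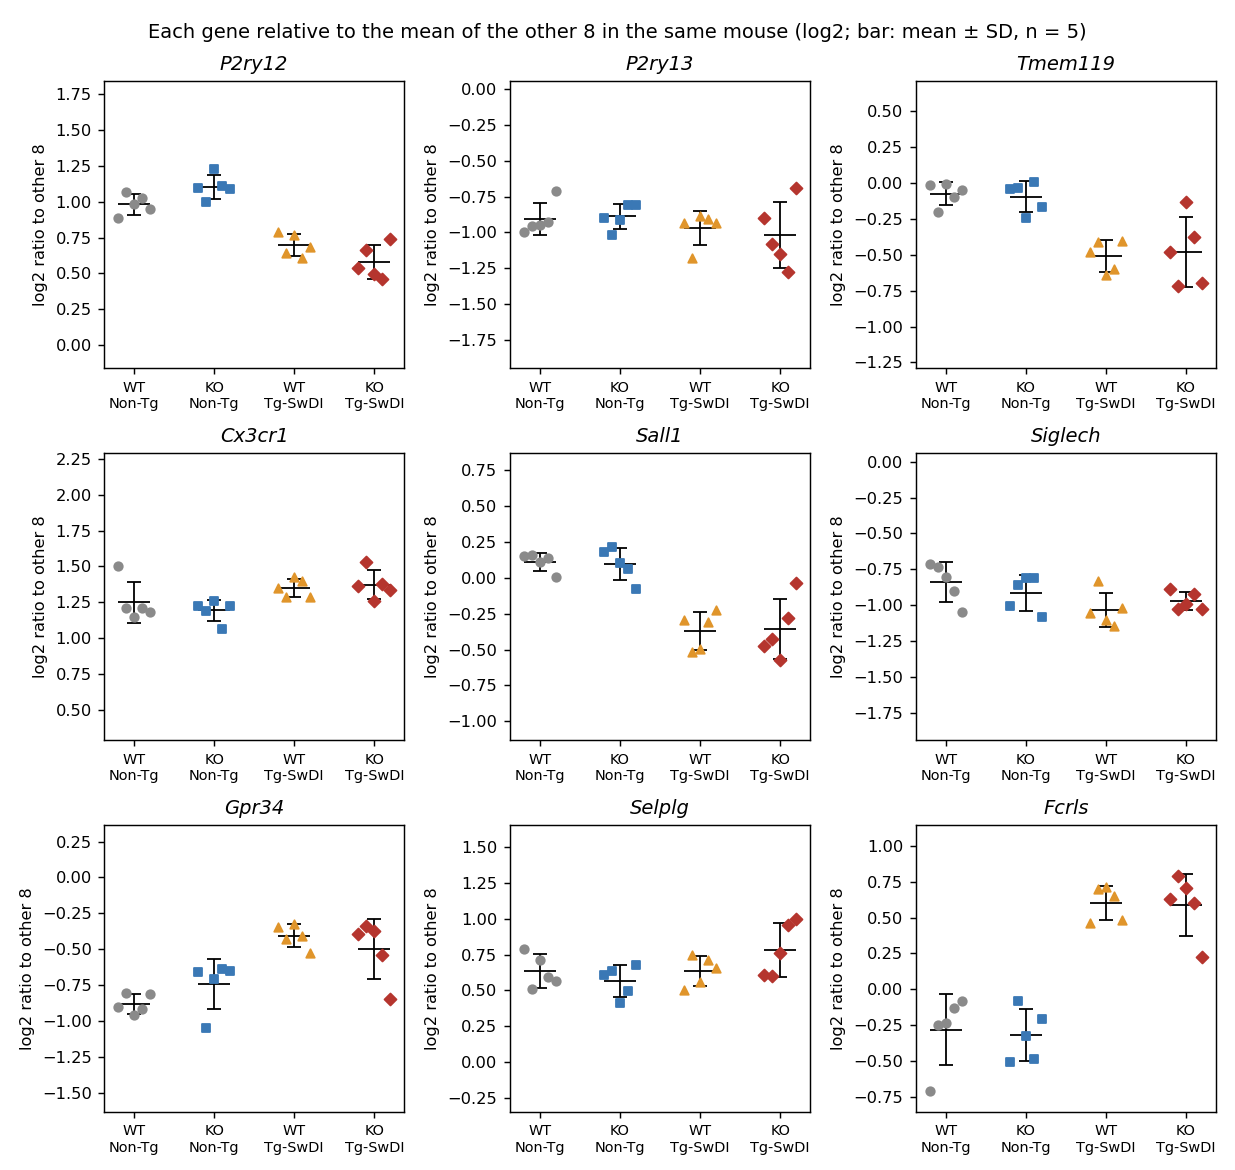
Log2 CPM of each gene less the mean log2 CPM of the other 8 genes in the same library, 1 panel per gene and a point per mouse, for the 4 groups of 5 mice with bars for the mean and SD. With the transgene, Fcrls lies higher and P2ry12 lower in both genotypes, with differences of 0.88 and -0.28 in WT mice.

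The question of the KO comparison in Tg-SwDI mice was whether levels differ with loss of miR-34a where the transgene is present. Whether the response to the transgene differs is a matter of the interaction term, given further below. Selplg, Siglech and Sall1 were higher in KO Tg-SwDI than WT Tg-SwDI mice, and the 6 other genes were not called. Selplg was 1.31-fold higher (log2 0.39, standard error 0.07, edgeR adjusted p = 0.00654) with all 25 of 25 pairs of a KO and a WT mouse in that direction. Siglech was 1.25-fold higher (log2 0.32, standard error 0.07, edgeR adjusted p = 0.0267), in 24 of 25 pairs, and Sall1 1.21-fold (log2 0.27, standard error 0.07, edgeR adjusted p = 0.0391), in 23 of 25 pairs. Of all genes tested, 1.99% were called and 1.48% were called higher, and 2.04% were higher without overlap between the groups, as Selplg was. The uncalled genes had log2 fold changes of 0.30 for Tmem119 (edgeR adjusted p = 0.0592), 0.29 for Cx3cr1 (0.0862), 0.27 for Fcrls (0.252), 0.22 for P2ry13 (0.189), 0.20 for Gpr34 (0.293) and 0.16 for P2ry12 (0.176). All 9 log2 fold changes were above 0, as were 50.7% of those of all genes, and 8 of 9 had an unadjusted p under 0.05, against 10.8% of all genes that were higher at that level. The summed CPM of the 9 genes was 558 ± 52.2 (SD, n = 5), from 505 to 633, in KO Tg-SwDI mice. It was 462 ± 30.2 (SD, n = 5), from 417 to 497, in the WT Tg-SwDI group.

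These calls differed in how much they hung on single mice, with 20 mice left out in turn. Selplg was called in all 20 fits (edgeR adjusted p 0.00381 to 0.0246). Siglech lost its call in 4 fits, without WT Tg-SwDI mouse 3, 5, 6 or 7 (edgeR adjusted p = 0.0859, 0.0547, 0.0572 and 0.0676). Sall1 lost it in 6, without WT Tg-SwDI mouse 3, 4, 5 or 7, KO Non-Tg mouse 4 or KO Tg-SwDI mouse 8 (edgeR adjusted p = 0.0986, 0.0746, 0.0853, 0.0508, 0.0509 and 0.0661). Tmem119 was called without KO Tg-SwDI mouse 8, the library rich in mt-Co1 (log2 0.37, edgeR adjusted p = 0.00974), and without KO Tg-SwDI mouse 2 (edgeR adjusted p = 0.0426). Cx3cr1 was called without WT Non-Tg mouse 2 (edgeR adjusted p = 0.041) and P2ry12 without KO Tg-SwDI mouse 5 (edgeR adjusted p = 0.047). P2ry13, Gpr34 and Fcrls were called in none of the 20. Over these fits the log2 fold change ran from 0.10 to 0.22 for P2ry12 and from 0.13 to 0.29 for Gpr34. Siglech and Sall1 were not called with library size alone as the scaling (edgeR adjusted p = 0.0877 and 0.0741) or with the 2 groups fitted alone (0.0948 and 0.133), whereas Tmem119 and Cx3cr1 were also called by DESeq2 (adjusted p = 0.0269 and 0.0403) and by edgeR's exactTest (0.0388 and 0.0486), and Tmem119 without the filter on low counts (edgeR adjusted p = 0.0488). With the trend on GC content and length removed, a setting added after seeing the data, neither Tmem119 nor P2ry12 was called (edgeR adjusted p = 0.227 and 0.0661). Over all alternatives the log2 fold change ran from 0.21 to 0.37 for Tmem119 and from 0.10 to 0.23 for P2ry12, ranges that overlapped. Thy1, whose counts rise with the transgene, was itself higher in every KO Tg-SwDI mouse than in any WT Tg-SwDI mouse, and its part in these differences was not tested.

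In Non-Tg mice the loss of miR-34a came with no called difference in any of the 9 genes. Their log2 fold changes lay between -0.10 for Siglech and 0.09 for Gpr34, with standard errors of 0.07 to 0.14, and their edgeR adjusted p-values between 0.794 and 0.981. P2ry12 (0.08) and Gpr34 were slightly higher in KO mice, and Selplg (-0.10), Cx3cr1 (-0.09), Fcrls (-0.07), Tmem119 (-0.06), Sall1 (-0.05) and P2ry13 (-0.02) slightly lower, all with overlapping groups. With 1 mouse left out, P2ry13 ran from -0.06 to 0.05, so its direction hung on single mice. Cx3cr1 then ran from -0.13 to -0.0036 and Fcrls from -0.14 to -0.0037. Among all genes, 0 (0%) were called in edgeR's quasi-likelihood test, 1302 (8.08%) had an unadjusted p under 0.05, and DESeq2 called 7 and edgeR's exactTest 4. None of the 9 had an unadjusted p under 0.05.

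Whether the KO effect differed between Tg-SwDI and Non-Tg mice was tested by the interaction term. It was called for Selplg, whose KO effect was larger by a log2 of 0.49 in Tg-SwDI mice (standard error 0.10, edgeR adjusted p = 0.0236), where 0.608% of all genes were called. The terms of the other 8 genes were 0.42 for Siglech (edgeR adjusted p = 0.0601), 0.38 for Cx3cr1 (0.135), 0.36 for Tmem119 (0.136), 0.34 for Fcrls (0.35), 0.32 for Sall1 (0.105), 0.25 for P2ry13 (0.348), 0.11 for Gpr34 (0.752) and 0.08 for P2ry12 (0.665). At an unadjusted p under 0.05 there were 5 of the 9 genes and 17.5% of all genes. The Selplg term missed the threshold without WT Non-Tg mouse 2 or 4, KO Non-Tg mouse 4 or 7 or WT Tg-SwDI mouse 7 (edgeR adjusted p up to 0.066). Siglech passed it without WT Tg-SwDI mouse 4, KO Tg-SwDI mouse 2 or KO Tg-SwDI mouse 8 (edgeR adjusted p = 0.0386, 0.0461 and 0.0252), and Tmem119 without KO Tg-SwDI mouse 8 (0.0407). With the level of choroid plexus genes as a covariate, a setting added after seeing the data, the term of Selplg was 0.45 (edgeR adjusted p = 0.0787). Over the alternatives the interaction term ran from 0.03 to 0.19 for P2ry12 and from 0.04 to 0.22 for Gpr34, neither of them called in any, and from 0.21 to 0.43 for Tmem119, where 0.19, 0.22 and 0.21 came with the trend on GC content and length removed, a setting added after seeing the data.

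Other genes of the microglial signature moved in the same direction. Of 20 further signature genes, 15 were called higher in WT Tg-SwDI than in WT Non-Tg mice and 19 in the same comparison of KO mice, against 3.94% and 12.5% of all genes tested, and none was called lower. The largest rises were those of Trem2, a lipid-sensing receptor (log2 2.45 in WT and 3.23 in KO mice), and Cd68, a lysosomal protein (2.13 and 3.10), and Olfml3 also rose (1.16 and 1.73). Crybb1 was called in neither, at -0.15 in WT and 0.04 in KO mice, and Slc2a5, Ltc4s, Adgrg1 and Ecscr were called in KO but not in WT mice, although none of these 4 had a called interaction. Ltc4s was low, at 1.26 to 1.82 CPM in KO Non-Tg and 2.35 to 7.27 CPM in KO Tg-SwDI mice. In WT Non-Tg mice it already spread from 1.10 to 4.73 CPM. Whether the choroid plexus level of the libraries bears on it was not tested. The median of the 20 was 0.74 in WT and 0.98 in KO mice. Between KO and WT Tg-SwDI mice, where 1.48% of all genes were called higher, 4 of the 20 were called, all higher, namely Cd68 (log2 0.68, edgeR adjusted p = 0.00635), Csf1r, the receptor for CSF1 and IL-34 (0.56, adjusted p = 0.000673), Itgam, an integrin chain (0.54, adjusted p = 0.00593), and Trem2 (0.48, adjusted p = 0.00415). Cd68, Csf1r and Trem2 also had a called interaction.

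Among 19 ligands, adaptors and regulators around these genes, 16 were tested. The same 9 were called higher with the transgene in WT and in KO mice, against 3.94% and 12.5% of all genes tested. Tyrobp, the adaptor of Trem2, rose most (log2 2.28 in WT and 3.03 in KO mice), followed by the transcription factor Irf8 (1.65 and 2.31). Of the 6 genes of TGF-beta signalling on the list, 4 were called higher, namely Tgfb1 (1.09 and 1.89), its receptors Tgfbr2 (0.97 and 1.51) and Tgfbr1 (0.81 and 0.999) and Nrros, which tethers latent TGF-beta on microglia (0.45 and 0.53). The other 2, Smad3, which carries the signal to the nucleus (-0.05 and -0.10), and Lrrc32, another tether of latent TGF-beta (-0.15 and 0.04), were not called. Spi1, which encodes PU.1 (0.91 and 1.66), and Csf1 (0.81 and 1.27) were also among those called, whereas Il34, Mef2a, Mef2c and Nt5e were not called. Tgfb1 (log2 0.52), Csf1 (0.41), Tyrobp (0.40) and Tgfbr2 (0.39) were among the 5 genes called between the Tg-SwDI groups, all with the higher level in KO mice. Of all genes tested, 1.48% were called higher in that comparison.

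Genes of plaque-associated microglia, which in single cells often rise where homeostatic genes fall, rose here beside the homeostatic genes. All 12 were called higher with the transgene in both genotypes, against 3.94% of all genes tested in WT and 12.5% in KO mice. Their median log2 fold change was 2.12 in WT and 2.86 in KO mice, and Cst7, a cystatin, rose most (7.04 and 7.99). Without the transgene their summed CPM was 2385 ± 176 in WT and 2260 ± 70.9 in KO mice, and with it 4033 ± 275 and 5094 ± 251 (SD, n = 5 each), with Apoe and other genes that astrocytes also express among them. Between KO and WT Tg-SwDI mice 7 of the 12 were called, all higher, against 1.48% of all genes (Apoe, Ctsb, Ctsd, Axl, Cst7, Gpnmb and Ccl6).

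Cx3cr1 and Selplg are also expressed by other myeloid cells, so markers of those cells were set beside them. Of 9 markers of border-associated macrophages, 0 were called in any of the comparisons, and their summed CPM was 27.3 ± 4.96 (WT) and 28.2 ± 8.41 (KO) without the transgene and 27.4 ± 3.92 (WT) and 31.4 ± 8.37 (KO) with it (SD, n = 5 each), with Stab1, which microglia also hold, the most abundant in all 20 mice. Their median log2 fold change with the transgene was -0.13 in WT and 0.20 in KO mice. Between KO and WT Tg-SwDI mice it was 0.486, beside 0.271 for the 9 homeostatic genes. For the interaction it was 0.493, beside 0.338 for the 9 homeostatic genes. The 5 monocyte markers summed to at most 1.58 CPM and the 7 lymphocyte markers to at most 1.75 CPM in any mouse, with Ccr2 and Cd4 the most abundant by their means over all mice. Ly6c2, Plac8 and Chil3 of the monocyte markers and Cd3d, Cd8a, Ms4a1 and Nkg7 of the lymphocyte markers were at 0 in at least 1 mouse. Only Ccr2 of these 12 markers had enough counts to be tested, and it was not called. Astrocyte markers were called higher with the transgene for 4 of 6 genes in WT and 3 of 6 in KO mice, and oligodendrocyte markers for 0 and 4 of 6, where 3.94% and 12.5% of all genes were called higher. Neuron markers were called lower for 0 of 6 in WT and 2 of 6 in KO mice, where 0.466% and 8.31% of all genes were called lower. Of the endothelial markers Tek was called lower in WT mice and Ly6c1 higher in KO mice, and between the Tg-SwDI groups Ly6c1 and the astrocyte gene Gfap were called higher in KO mice. Blood markers were called in no comparison.

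Markers of choroid plexus differed widely between libraries. These markers, led by Ttr in every mouse, summed to between 63.2 and 347 CPM in the 5 KO Non-Tg mice, but to 1916, 169, 3196, 60.4 and 4340 CPM in WT Non-Tg mice. They summed to 3790, 3500, 3212, 3450 and 117 CPM in WT Tg-SwDI and to 2209, 125, 3235, 3677 and 3896 CPM in KO Tg-SwDI mice. The choroid plexus level thus moved with the transgene comparison in KO mice, where 8 of its 10 markers were called higher. It also moved with the comparison of KO and WT Non-Tg mice (median log2 fold change of the markers -3.155) and with the interaction (2.871). None of the markers was called in either of these. With this level as a covariate, all 9 homeostatic genes remained called higher with the transgene in both genotypes. Choroid plexus was at low levels in KO Tg-SwDI mouse 2, the mouse with the highest sum of the 9 genes (633 CPM).

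**Figure D5:**
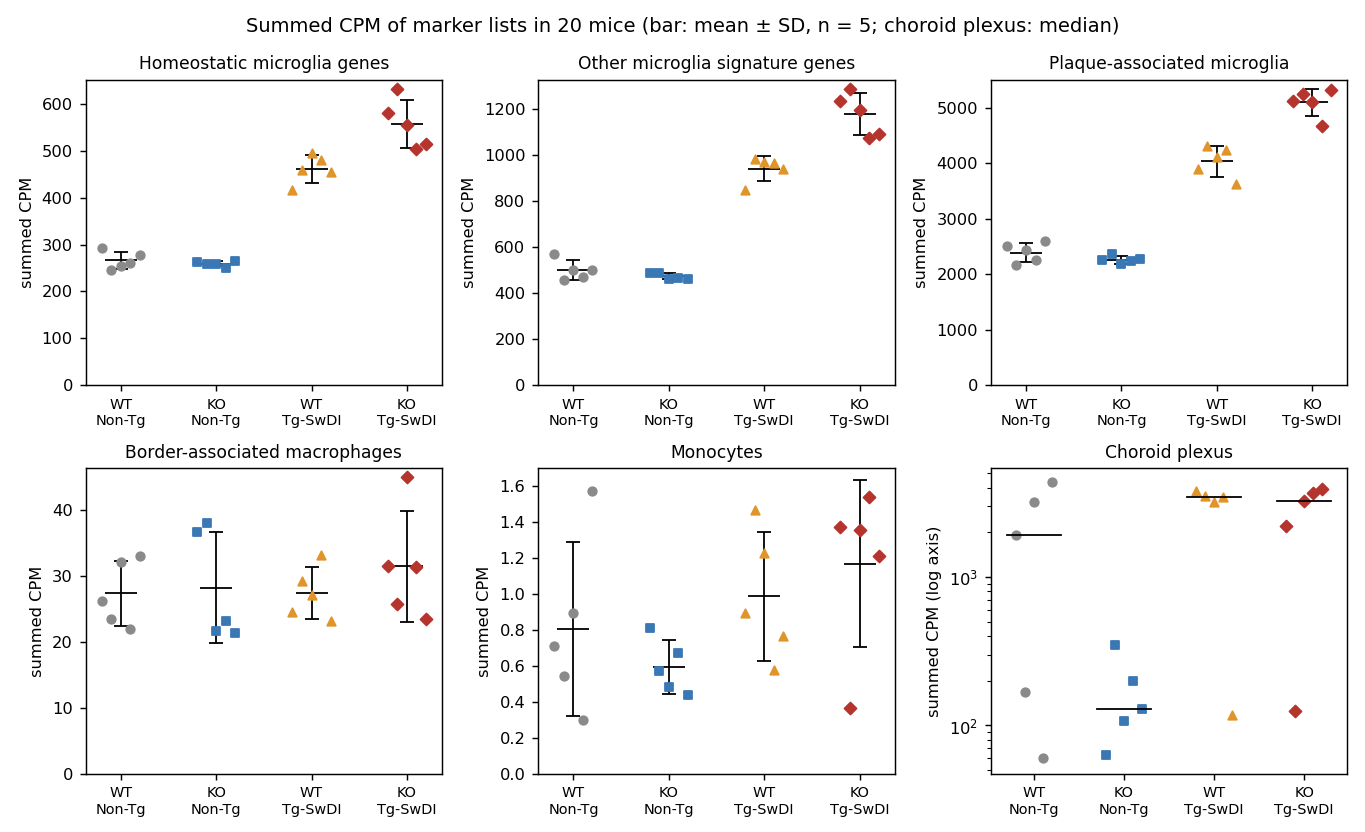
Summed CPM of 6 gene lists in each mouse (a point per mouse, 4 groups of 5, with the mean and SD, or for choroid plexus the median on a log axis). The sums of the 9 homeostatic genes and of the plaque-associated genes are higher in Tg-SwDI mice, those of border-associated macrophages (21.4 to 45.0 CPM) overlap between all groups, and those of choroid plexus are low in all KO Non-Tg mice and in 4 mice of the other groups.

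Across all genes tested, the pattern nearest to the mean of the 9 genes was that of Mpeg1, a macrophage pore-forming protein, with Pearson's r of 0.994 over the 20 mice. It was followed by C1qc, Plek, Cd53, Fcgr2b, Vsir, Ly86, C1qa, Gusb and Slc15a3 (r of 0.987 for the last). The 20 mice share their groups, so these values mostly restate the difference between Tg-SwDI and Non-Tg mice. When each mouse was set against the mean of its own group, Cd83 was the nearest (r = 0.852), with Mpeg1, Cd53, Plek, Prkcd, Vsir, Hexa, C1qa and Mlc1 (0.781) among the next. Within groups the 9 genes themselves differed in how closely each followed the mean of the other 8. Cx3cr1 followed it most closely (r = 0.803), then Gpr34 (0.641) and P2ry12 (0.605), P2ry13 (0.472), Siglech (0.439) and Fcrls (0.419), and Tmem119 (0.321), Selplg (0.302) and Sall1 (0.105) least. These correlations are descriptions over mice that share groups and libraries, and no test was made of them.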

How the data were processed

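Total RNA from 1 left hippocampus per mouse was made into stranded mRNA libraries. The authors aligned reads to mm10 with STAR, assigned them to ENSEMBL genes by FeatureCounts and deposited the raw counts, not normalized. The strand setting and the handling of reads with several matching genes are not given in the sources used here. Symbols, positions and exonic lengths came from GENCODE M21, which matched 38872 of 39056 identifiers (99.5%). The 9 genes, the marker lists and the tests were chosen with earlier results of these data known.

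CPM were computed from TMM-scaled library sizes. The filter was filterByExpr (minimum count 10, total 15). A single robust quasi-likelihood model was fitted in edgeR 4.0.16 (R 4.3.3, limma 3.58.1) to the 4 group means of all 20 mice, with 16 residual degrees of freedom. P-values were adjusted by the Benjamini-Hochberg method over 16107 genes at an FDR of 0.05. Relative values and correlations used log2 CPM with a prior count of 2. The scripts were tested on simulated data. Totals of 19549622 to 21066868 counts per library gave each of the 9 genes 273 to 2994 counts per mouse. Named by rule were the 9 genes, called genes of the lists (up to 5 per list and comparison), any gene of the signature and ligand lists, and the 10 genes nearest to the 9 over all mice and within groups, besides label checks. Outside the rule, all called plaque-associated genes, markers at 0 or most abundant, and overlapping genes were named. Values of some list genes are not reported here.

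Alternatives were RLE factors, library size alone, no filter, a mean CPM of at least 1 (14411 genes), the compared groups alone, DESeq2 1.42.0, edgeR's exactTest, a block for the replicate number, a prior count of 0.5 and each mouse left out. A choroid plexus covariate and the removal of the trend on GC content and length were added after seeing the data.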

Additional observations from a re-analysis of the deposited data

Results flagged for a closer look

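Among the 36 groups of 5 values (9 genes in 4 groups), 4 held a mouse whose gap to the nearest other mouse was above 0.71 of the group's range, where chance alone flags about 1 in 20 groups. P2ry12 was at 77.56 CPM in WT Tg-SwDI mouse 5 and between 67.2 and 69.2 CPM in the 4 others. WT Non-Tg mouse 2 stood out for both Sall1 (30.88 CPM, others 27.0 to 28.0) and Siglech (18.16 CPM, others 14.6 to 15.6). Gpr34 was at 13.32 CPM in KO Non-Tg mouse 2 and between 16.4 and 17.5 CPM in the 4 others. The effect of miR-34a loss on Selplg differed between Tg-SwDI and Non-Tg mice by a log2 of 0.4871 (interaction term, edgeR adjusted p = 0.0236).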

How the results depend on the processing

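In both transgene comparisons 9 of 9 genes were called higher under every alternative run, and no called result changed its direction. Of the 3 members called in KO against WT Tg-SwDI mice, library size alone left 1, the 2 compared groups alone 1 and the replicate block 0, DESeq2 and edgeR's exactTest gave 5, and leaving out 1 mouse gave 1 to 4. Selplg was lost only with the block (edgeR adjusted p = 0.136). Over all genes, the 320 calls of that comparison became 8 with the block, 58 with the groups alone, 565 by the exactTest, 733 by DESeq2, 509 with the choroid plexus covariate, 182 with the GC and length trend removed, and 78 to 701 with 1 mouse left out. The 0 calls in Non-Tg mice became 1 without the filter, 1 with the groups alone, 4 by the exactTest, 7 by DESeq2 and 0 to 3 with 1 mouse left out. The 3351 calls between Tg-SwDI and Non-Tg KO mice became 1183 with the covariate. The 1 member called for the interaction became 2 by DESeq2, 0 with the covariate and 0 to 3 with 1 mouse left out, and the 98 genes became 59 with library size alone, 38 with the replicate block, 482 by DESeq2, 13 with the covariate, 37 with the trend removed and 14 to 500 with 1 mouse left out. The causes were not tested. The labels do not say whether mice with the same replicate number belong together. Such mice deviated from their group means with correlations of -0.404 to 0.154. Only 2 of these, -0.0307 and 0.0604, were between KO and WT Tg-SwDI mice. So few correlations cannot exclude a pairing. The block left 9 residual degrees of freedom. Across 16081 genes the log2 fold change of KO against WT Tg-SwDI mice followed GC content with a Spearman's rho of 0.326.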
